A study of Mus musculus with 6 samples.

Results

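The levels of 10 mouse genes of cell death were followed: 3 anti-apoptotic genes (Bcl2, Bcl2l1 and Mcl1), 4 BH3-only genes (Bcl2l11, Bbc3, Pmaip1 and Bid), 2 effectors (Bax and Bak1) and the death receptor gene Fas. They were taken by symbol and are 10 of the 20866 genes named on the array. Each gene was read by its brightest probe, the one with the highest mean over the 6 arrays. The study measured RNA of sorted thymic cells from C57BL/6 mice aged 1.5 to 2 weeks, with a double knockout of TNFalpha and RelA set against a knockout of TNFalpha alone. By their labels all samples carry the TNF knockout, and the samples of a pair differ by RelA, the p65 subunit of NF-kB. CD4+CD25hi thymocytes, in which regulatory T cells are enriched, were pooled from 5 mice of each genotype. Epithelial cells of the thymus (CD45-EpCAM+) and a CD45+EpCAM- fraction labelled as stroma were each pooled from 10 thymi of each genotype. Each of the 6 groups was 1 pool on 1 one-colour array, so a difference between genotypes within a population has no replicate check and no test.

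Apoptosis through mitochondria is set by the balance within the BCL2 family. Bcl-2, Bcl-xL (from Bcl2l1) and Mcl-1 hold the effectors Bax and Bak in check, and the BH3-only proteins Bim (Bcl2l11), Puma (Bbc3), Noxa (Pmaip1) and Bid release or activate them, after which cytochrome c leaves the mitochondria and caspases are activated. Fas is a cell surface receptor that recruits Fadd and caspase-8 when it binds Fas ligand, and caspase-8 can cleave Bid to join this route to the mitochondrial one. In the thymus, Bim is known for the deletion of self-reactive thymocytes, and Mcl-1 for the survival of regulatory T cells and of thymic epithelium. NF-kB is known to induce survival genes, Bcl2l1 and the Bcl2a1 genes among them.

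Without RelA, the CD45-EpCAM+ pair held the largest differences among these genes. Genes of every kind were spread most widely in that pair: 14.4% were at least 2-fold apart, against 3.89% (CD45+EpCAM- pair) and 2.95% (thymocyte pair). Its double-knockout array was also the dimmest of the study. The BH3-only gene Pmaip1 was 3.38-fold lower and Fas 2.95-fold lower on the double-knockout array than on the TNF-knockout array, and Bcl2l1 was 1.98-fold lower. In CD45+EpCAM- cells Bbc3 was 2.40-fold higher in the double knockout, and in CD4+CD25hi thymocytes the 10 genes differed by at most 1.24-fold. Between populations, CD4+CD25hi thymocytes had more Bcl2, Bcl2l1, Mcl1, Bid and Fas RNA than the CD45-EpCAM+ sort. Levels below are log2 of the signal above the 75th percentile of the array, and they are not comparable between genes, since probes differ in brightness.

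The number of arrays limits the precision of every value. The 75th percentile of the signal lay between 108 and 675 over the 6 arrays, and 47.3% to 66.2% of probes were well above background. Both low ends belong to the double-knockout array of CD45-EpCAM+ cells, which was the dimmest. Rela had a level of 2.66 in double-knockout against 4.52 in TNF-knockout CD4+CD25hi thymocytes, 1.81 against 3.84 in CD45-EpCAM+ cells and 3.30 against 4.04 in CD45+EpCAM- cells, so the labels held in each pair, though least in the last. Tnf still gave signal: its level was -0.78 in double-knockout and -0.64 in TNF-knockout CD4+CD25hi thymocytes, and -0.64 and -0.57 in CD45+EpCAM- cells. On the epithelial arrays the Tnf probe was not well above background in the double knockout and stood at -1.49 in the TNF knockout, at least 2.32-fold lower in the double knockout. Rela and Tnf had a single probe each, which may or may not lie in the part that was disrupted. All 4 regulatory T cell markers were well above background in CD4+CD25hi thymocytes. All 6 thymic epithelial markers were so on the CD45-EpCAM+ arrays. All 4 T lineage markers were well above background on all 6 arrays, so none of the sorts was free of T cell RNA. Their summed signal, in multiples of the 75th percentile, was 89.8 in double-knockout and 47.5 in TNF-knockout CD45-EpCAM+ cells, and that of the 5 immature thymocyte markers 65.9 and 33.0. The sum of the 4 granulocyte markers was 8.24 and 31.5 there, and that of the 6 epithelial markers 192 and 191, of which the keratin genes Krt5 and Krt8 gave the most. Beneath these sums, Aire, which marks a subset of medullary epithelial cells, had a level of -0.86 in the double knockout and 1.04 in the TNF knockout, and Epcam 1.49 and 2.12. The summed fibroblast and endothelium markers were 9.99 and 4.62 in the same pair, the macrophage markers 6.63 and 4.31, the erythroid markers 13.2 and 6.67 and the dendritic cell markers 69.3 and 41.3, though only 1 of the 4 dendritic cell markers was well above background in the double knockout and 3 in the TNF knockout. Nearly all of the dendritic cell sum came from Siglech, at 6.11 in the double knockout and 5.35 in the TNF knockout. Its level was higher still in CD4+CD25hi thymocytes, 7.42 and 7.28, so this sum does not follow dendritic cells alone. In CD45+EpCAM- cells the summed T lineage markers were 224 and 231, against 201 and 224 in CD4+CD25hi thymocytes. In such bulk samples, fewer cells of a type and less RNA per cell cannot be told apart.

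Of the anti-apoptotic genes, Bcl2 was the one with higher values in the double knockout in all 3 populations. Its level was 3.26 in double-knockout and 3.15 in TNF-knockout CD4+CD25hi thymocytes. On the epithelial arrays it was 1.71 in the double knockout and 0.88 in the TNF knockout. On the CD45+EpCAM- arrays it was 2.86 in the double knockout and 2.18 in the TNF knockout. The highest values came from the thymocytes and the lowest from the epithelial sort, and no population overlapped with another. The differences of double knockout minus TNF knockout were 0.11, 0.83 and 0.69, and in the CD45+EpCAM- pair 95.9% of all genes had a lower difference than Bcl2. In the epithelial pair the summed T lineage and immature thymocyte markers were also higher in the double knockout, and their part in the Bcl2 difference was not tested. In the CD45+EpCAM- pair the summed immature thymocyte markers were 79.5 in the double knockout and 128.5 in the TNF knockout. The B cell sum was lower there too, and the macrophage and granulocyte sums were higher. Their part in the Bcl2 difference of that pair was not tested either. Starting from another background correction, normexp, the epithelial difference of Bcl2 was 0.44.

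Bcl2l1, which encodes Bcl-xL, ran the other way, with lower values in the double knockout in all 3 populations. Its level was 4.51 in double-knockout and 4.80 in TNF-knockout CD4+CD25hi thymocytes. Epithelial levels were 2.36 in the double knockout and 3.35 in the TNF knockout, and CD45+EpCAM- levels were 3.51 in the double knockout and 3.82 in the TNF knockout. The double-knockout epithelial array stood lowest of the 6, and the populations again did not overlap. The differences were -0.29, -0.99 and -0.31. A second, dimmer probe of Bcl2l1 gave -0.30, -0.84 and -0.57, all in the same direction. The epithelial difference lay just under 2-fold, and it passed 2-fold with quantile normalization (-1.06), median centring (-1.04) and normexp (-1.28).

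The promoter windows of these genes are shown because RelA binds DNA at NF-kB sites. RefSeq promoter windows of build GRCm38.p6, from 250 bases before to 50 after a transcript start, matched 9 of the 10 genes by symbol; Pmaip1 had no entry. The NF-kB consensus motif, searched on both strands, was present in 1480 of 32851 such windows (4.51%), and among these genes in 1 of the 3 windows of Bcl2l1 and 1 of the 3 of Bbc3. The looser motif GGGNNNNNCC, of which every consensus match is also an example, was in 50.8% of the windows. A match describes these letters only and is not a measured binding site. The stretches with the consensus are given here 5′ to 3′ on the strand of the gene, with the match in capitals. The Bbc3 stretch matches on both strands, and a further match overlaps it 1 base downstream.
Bcl2l1, match at chr2:152830950-152830959, minus strand, starting 242 bases before the start: tgtttgtgGGGGGTCTCCagcatacgcc
Bbc3, match at chr7:16309446-16309455, plus strand, starting 137 bases before the start: tctggctgccGGGAAACCCCccgcgccgag

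Mcl1 differed little between genotypes. Its level was 5.12 in double-knockout and 4.97 in TNF-knockout CD4+CD25hi thymocytes, 3.27 and 3.51 on the epithelial arrays, and 3.84 and 3.79 in CD45+EpCAM- cells. The differences were 0.15, -0.25 and 0.05, and its second probe gave 0.28, -0.19 and 0.17. These are of the size of the SD between probes of 1 gene, which was 0.223, 0.325 and 0.206 in the 3 pairs. The 2 thymocyte arrays stood well above the other 4.

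**Figure D1:**
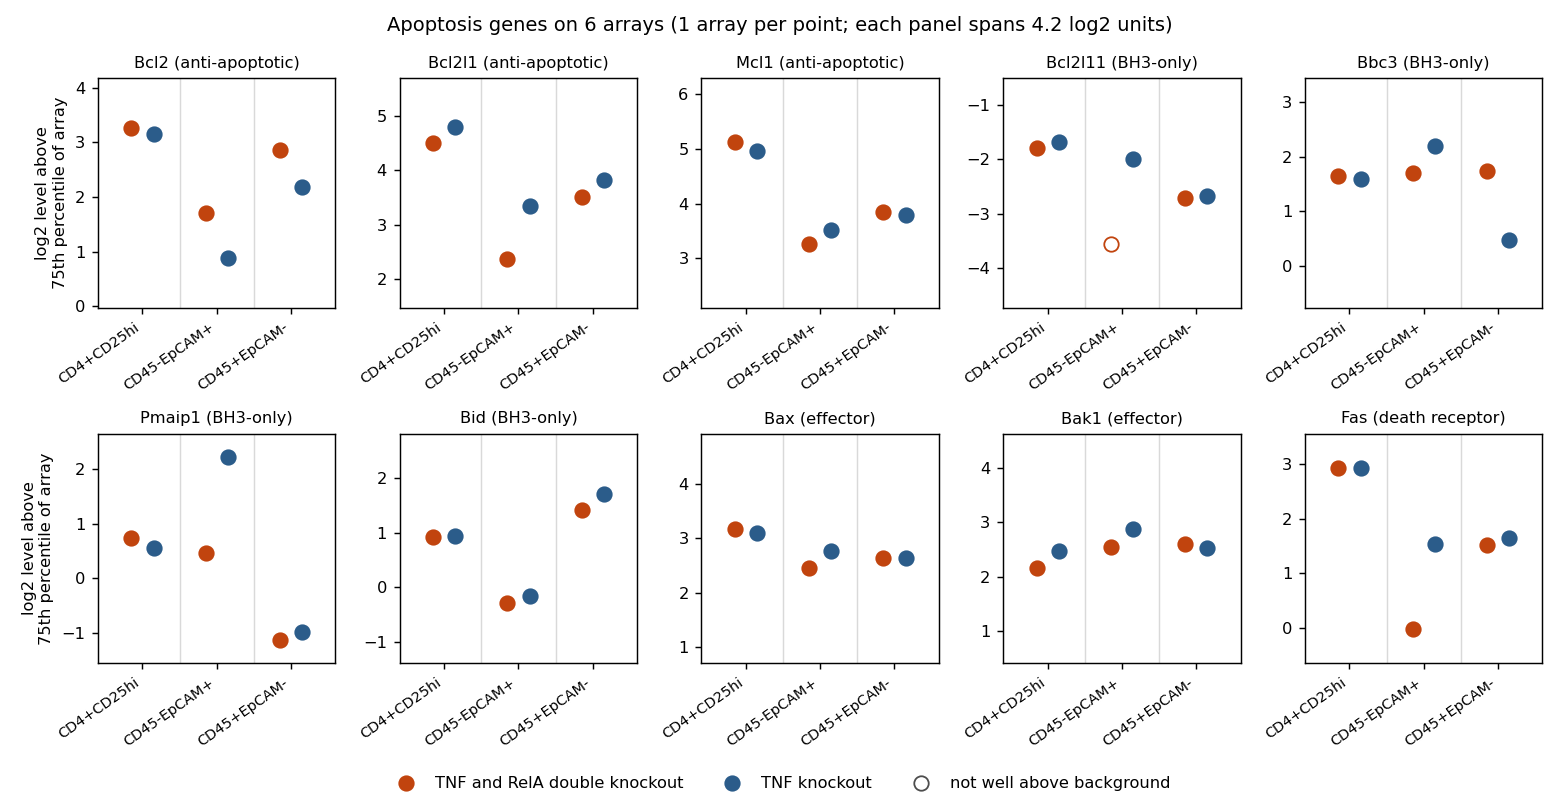
Log2 level above the 75th percentile of the array (vertical axis) for each of the 10 genes, in the 3 sorted populations (horizontal axis); each point is 1 array, the double knockout in orange left of the TNF knockout in blue, and an open point is not well above background. Every panel spans the same number of log2 units, and a reader should see Pmaip1 and Fas far apart between genotypes in CD45-EpCAM+ cells, Bbc3 in CD45+EpCAM- cells, and no wide gap between genotypes in CD4+CD25hi thymocytes.

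Among the BH3-only genes, Pmaip1, which encodes Noxa, an antagonist of Mcl-1, varied most. Its level was 0.74 in double-knockout and 0.55 in TNF-knockout CD4+CD25hi thymocytes. The CD45-EpCAM+ arrays had 0.47 in the double knockout and 2.23 in the TNF knockout. The CD45+EpCAM- arrays had -1.14 in the double knockout and -0.98 in the TNF knockout. The TNF-knockout epithelial array stood alone at the top, while the double-knockout epithelial array lay below both thymocyte arrays. The differences were 0.19, -1.76 and -0.16, and in the epithelial pair 3.28% of all genes had a lower difference than Pmaip1. Its range over the 6 arrays, 3.37, was the widest of the 10 genes.

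Bbc3, which encodes Puma, a p53 target that binds all the anti-apoptotic members, differed in CD45+EpCAM- cells. Its level was 1.63 in double-knockout and 1.59 in TNF-knockout CD4+CD25hi thymocytes. For CD45-EpCAM+ cells the values were 1.70 in the double knockout and 2.19 in the TNF knockout. For CD45+EpCAM- cells they were 1.73 in the double knockout and 0.47 in the TNF knockout. The TNF-knockout CD45+EpCAM- array was the low one, and the other 5 lay between 1.59 and 2.19. The differences were 0.05, -0.49 and 1.26, and in the CD45+EpCAM- pair 99.0% of all genes had a lower difference than Bbc3. In that pair the summed immature thymocyte markers were 79.5 in the double knockout and 128.5 in the TNF knockout, with all 5 well above background on both arrays. The summed macrophage markers were 14.1 and 8.59 and the granulocyte markers 22.3 and 5.95, with all 4 of each well above background on both arrays. The summed B cell markers were 2.09 and 3.71. Of the dendritic cell markers, Flt3 had a difference of -1.83, Itgax of -1.46 and Siglech of -0.03, and the erythroid marker Hba-a1 had 1.64. The part of these in the Bbc3 difference was not tested.

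Bcl2l11, which encodes Bim, lay below the 75th percentile on all 6 arrays. Its level was -1.79 in double-knockout and -1.69 in TNF-knockout CD4+CD25hi thymocytes, and -2.72 and -2.67 in CD45+EpCAM- cells. The epithelial arrays gave -3.55 in the double knockout, where the probe was not well above background, and -2.00 in the TNF knockout. Bcl2l11 was therefore at least 1.76-fold lower there, with the dim side raised to the lowest signal well above background on that array. Its other 2 differences were -0.10 and -0.05. Without a filter on dim probes the measured epithelial difference was -1.55.

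Bid, which links caspase-8 to the mitochondria, had levels of 0.93 in double-knockout and 0.93 in TNF-knockout CD4+CD25hi thymocytes, -0.29 and -0.17 on the epithelial arrays, and 1.43 and 1.71 in CD45+EpCAM- cells. Its differences were -0.0068, -0.12 and -0.28, whereas the 3 populations stood clear of each other, with CD45+EpCAM- cells highest. The effectors Bax and Bak1, whose proteins open the outer mitochondrial membrane, varied least, with ranges over the 6 arrays of 0.73 and 0.70. Bax had levels of 3.18 in double-knockout and 3.10 in TNF-knockout CD4+CD25hi thymocytes, 2.45 and 2.77 on the epithelial arrays, and 2.64 and 2.64 in CD45+EpCAM- cells. Bak1 had levels of 2.16 in double-knockout and 2.48 in TNF-knockout CD4+CD25hi thymocytes, 2.54 and 2.87 on the epithelial arrays, and 2.61 and 2.53 in CD45+EpCAM- cells. The differences were 0.08, -0.32 and -0.0039 for Bax and -0.31, -0.32 and 0.08 for Bak1, and for both effectors the values of different populations lay close together.

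Fas, the death receptor, combined its highest level in thymocytes with the second largest epithelial difference measured on both arrays. Its level was 2.93 in double-knockout and 2.93 in TNF-knockout CD4+CD25hi thymocytes. Fas stood at -0.02 in double-knockout and 1.54 in TNF-knockout CD45-EpCAM+ cells. It stood at 1.52 in double-knockout and 1.66 in TNF-knockout CD45+EpCAM- cells. The double-knockout epithelial array was the low one, and the TNF-knockout epithelial array lay within the CD45+EpCAM- values. The differences were -0.0036, -1.56 and -0.14, and 4.65% of all genes had a lower epithelial difference than Fas. Its ligand gene Fasl was not well above background on the thymocyte and epithelial arrays, and had levels of -3.60 in double-knockout and -3.13 in TNF-knockout CD45+EpCAM- cells.
The 250 bases before the single RefSeq start of Fas are shown because of this difference. They hold no match to the NF-kB consensus, and the GGGNNNNNCC matches on either strand are in capitals, 202 and 48 bases before the start.
Fas, chr19:34290409-34290658, plus strand: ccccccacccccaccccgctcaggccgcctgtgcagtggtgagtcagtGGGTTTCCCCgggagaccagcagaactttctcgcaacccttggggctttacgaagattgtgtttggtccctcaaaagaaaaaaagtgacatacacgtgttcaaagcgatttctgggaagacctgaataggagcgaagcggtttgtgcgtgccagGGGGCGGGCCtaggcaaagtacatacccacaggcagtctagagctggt

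Counted over the 10 genes, none was at least 2-fold apart between genotypes in CD4+CD25hi thymocytes, where 2.95% of 12936 measured genes were, 1.68% higher and 1.28% lower. Their differences ran from -0.31 to 0.19, with a median of 0.02 against -0.02 for all genes. In CD45-EpCAM+ cells 2 of 10 (Pmaip1 and Fas) were at least 2-fold lower and none higher, where 14.4% of 13208 genes were 2-fold apart, 9.3% lower and 5.1% higher. The split over all genes moved with the rule for dim probes in this pair. Of the genes 2-fold apart 35.4% were higher, against 45.3% with both arrays well above background and 69.2% with no filter. There 9 of the 10 values lay below 0, Bcl2 being the exception, against 47.0% of all genes, and the median was -0.40 against 0.03. In CD45+EpCAM- cells 1 of 10 (Bbc3) was at least 2-fold higher and none lower, where 3.89% of 14588 genes were 2-fold apart, 1.82% higher and 2.08% lower, and the median was -0.03 against -0.01. By role, the epithelial medians were -0.25 for the anti-apoptotic genes, -0.65 for the BH3-only genes and -0.32 for the effectors. The anti-apoptotic median is the value of Mcl1, with Bcl2 at 0.83 and Bcl2l1 at -0.99 on either side. The BH3-only median rests in part on the bound of Bcl2l11, so it is itself a bound and could be lower. The dimmest array was also the lowest of the 6 for Bcl2l1, Mcl1, Bcl2l11, Bid, Bax and Fas, and the part of its low signal in these differences was not tested. Nor was the part of the cell types in that pair, where Aire and Epcam and the summed granulocyte markers given above were lower in the double knockout. The sums of the T lineage, immature thymocyte, macrophage, dendritic cell, erythroid, and fibroblast and endothelium markers were higher. Within these sums, Itgax, Flt3, Alas2, Cd8b1 and Col1a1 went the other way and were lower in the double knockout. The higher dendritic cell sum was thus that of Siglech, which was brightest in the thymocyte sort.

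**Figure D2:**
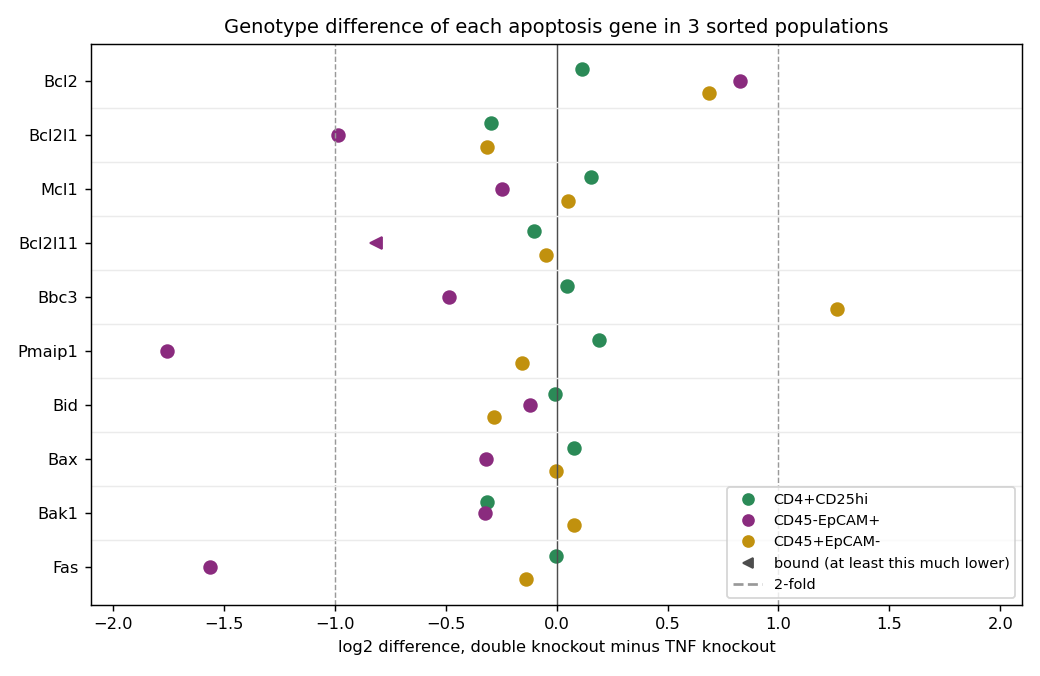
Log2 difference of double knockout minus TNF knockout (horizontal axis) for each of the 10 genes, 1 point per population, with 1 array behind each genotype and no error bar; the triangle is a bound. The epithelial points (purple) lie below 0 except for Bcl2, with Pmaip1 and Fas past the dashed 2-fold line on the left and Bbc3 of CD45+EpCAM- cells past it on the right.

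Whether a genotype effect was shared by the populations was asked with an additive limma fit, population as a block, over 13743 genes. Its test rests on how far the difference varies between populations, not on replicate pools. None of the 10 genes passed an adjusted p of 0.05, and neither did any of the 13743 genes (0%). At an unadjusted p under 0.05 there were 873 genes, or 6.35%, and 1 of the 10, Bcl2. Bcl2 had a shared difference of 0.54 (95% interval 0.01 to 1.08, limma adjusted p = 0.679) and was higher in 3 of 3 populations. Bcl2l1 had -0.53 (95% interval -1.08 to 0.02, limma adjusted p = 0.679) and was lower in 3 of 3. Bcl2l11, Bid and Fas were lower in 3 of 3 as well, Bid (-0.0068) and Fas (-0.0036) barely so in the thymocytes. How many of all genes had the same sign in every population was not counted, so such agreement describes these genes only. The shared estimates of Pmaip1 and Fas were both -0.57, with intervals of -1.86 to 0.71 and -1.65 to 0.51. Both intervals include 0 and reach past 2-fold lower. For Mcl1 the interval was narrower, -0.39 to 0.36. Over the 10 genes the limma adjusted p ran from 0.679 to 0.974, and 8 estimates lay below 0.

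The populations themselves were compared in the same kind of fit, with genotype as a covariate; a gene was called if its adjusted p was under 0.05 and its difference 2-fold or more. Each population lay on 1 slide, so that population and slide cannot be told apart, and the slide of CD45-EpCAM+ cells was scanned on another day than the other slides. In CD4+CD25hi thymocytes against CD45-EpCAM+ cells, 5 of the 10 genes were called higher and none lower, where 38.9% of genes were called, 18.3% higher and 20.7% lower. With median centring in place of the 75th percentile, 36.3% of the calls over all genes were higher, against 46.9% with the 75th percentile. All 3 anti-apoptotic genes were among the 5: Bcl2 was higher by 1.91 (SE 0.23, limma adjusted p = 0.00699), Bcl2l1 by 1.80 (SE 0.24, limma adjusted p = 0.0084) and Mcl1 by 1.66 (SE 0.16, limma adjusted p = 0.00476). Fas was higher by 2.17 (SE 0.46, limma adjusted p = 0.0244) and Bid by 1.16 (SE 0.14, limma adjusted p = 0.00709). Bid fell short of 2-fold with median centring (0.94) and with normexp (0.96). Leaving out either thymocyte array kept Bcl2 and Mcl1 called and lost Bcl2l1, Bid and Fas, whose limma adjusted p then ran from 0.0507 to 0.123; over all genes there were 2845 calls without the TNF-knockout array and 3259 without the double-knockout array, against 5350 with all arrays. Pmaip1 was called without the double-knockout epithelial array (-1.59, limma adjusted p = 0.0156). Without the TNF-knockout epithelial array, Bcl2l11 was left with an epithelial value not well above background, and no difference is given for it.

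Against CD45+EpCAM- cells, whose summed T lineage markers were as high as those of the thymocytes, 1 of the 10 genes was called, Mcl1, higher by 1.23 (SE 0.16, limma adjusted p = 0.0264), where 12.6% of genes were called, 4.8% higher and 7.81% lower. With normexp 48.2% of the calls over all genes were higher, against 38.1%. Bcl2l1 was higher by 0.99 (SE 0.24, limma adjusted p = 0.0714), Pmaip1 by 1.70 (SE 0.55, limma adjusted p = 0.122) and Fas by 1.35 (SE 0.46, limma adjusted p = 0.136), none of them a call. Bid was lower in the thymocytes, at -0.64 (SE 0.14, limma adjusted p = 0.0614), also no call. Leaving out any 1 of the 4 arrays of these populations left no gene called in the whole table, and Mcl1 then had a limma adjusted p between 0.14 and 0.216.

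Between the other 2 sorts, 3 of the 10 genes were called, 1 higher and 2 lower in CD45-EpCAM+ cells than in CD45+EpCAM- cells, where 38.6% of genes were called, 19.4% higher and 19.2% lower. The split over all genes moved to 61.3% higher with median centring and 59.8% with normexp, against 50.3%. Pmaip1 was higher by 2.41 (SE 0.55, limma adjusted p = 0.0294). Bcl2 had a difference of -1.22 (SE 0.23, limma adjusted p = 0.0183) and Bid of -1.80 (SE 0.14, limma adjusted p = 0.00381). Bid alone remained called without either CD45+EpCAM- array, with 2005 calls over all genes without the TNF-knockout one and 2205 without the double-knockout one, against 5301. Without the TNF-knockout epithelial array Bcl2 was not called (limma adjusted p = 0.0607), while Bcl2l1 (-1.15, limma adjusted p = 0.016) and Fas (-1.57, limma adjusted p = 0.0129) were. With median centring Bcl2 lay just under 2-fold. The order of the populations was the same for all 3 anti-apoptotic genes: CD4+CD25hi thymocytes, then CD45+EpCAM- cells, then CD45-EpCAM+ cells. For Bcl2l11, Bax and Fas the order of means was the same but the lower 2 populations overlapped. Bid was highest in CD45+EpCAM- cells, and Bbc3, Pmaip1 and Bak1 had their highest mean in CD45-EpCAM+ cells, which overlapped with the next population for Pmaip1 and Bak1. How many of all genes share such an order, or stand apart between populations, was not counted, so these orders describe the 10 genes only.

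**Figure D3:**
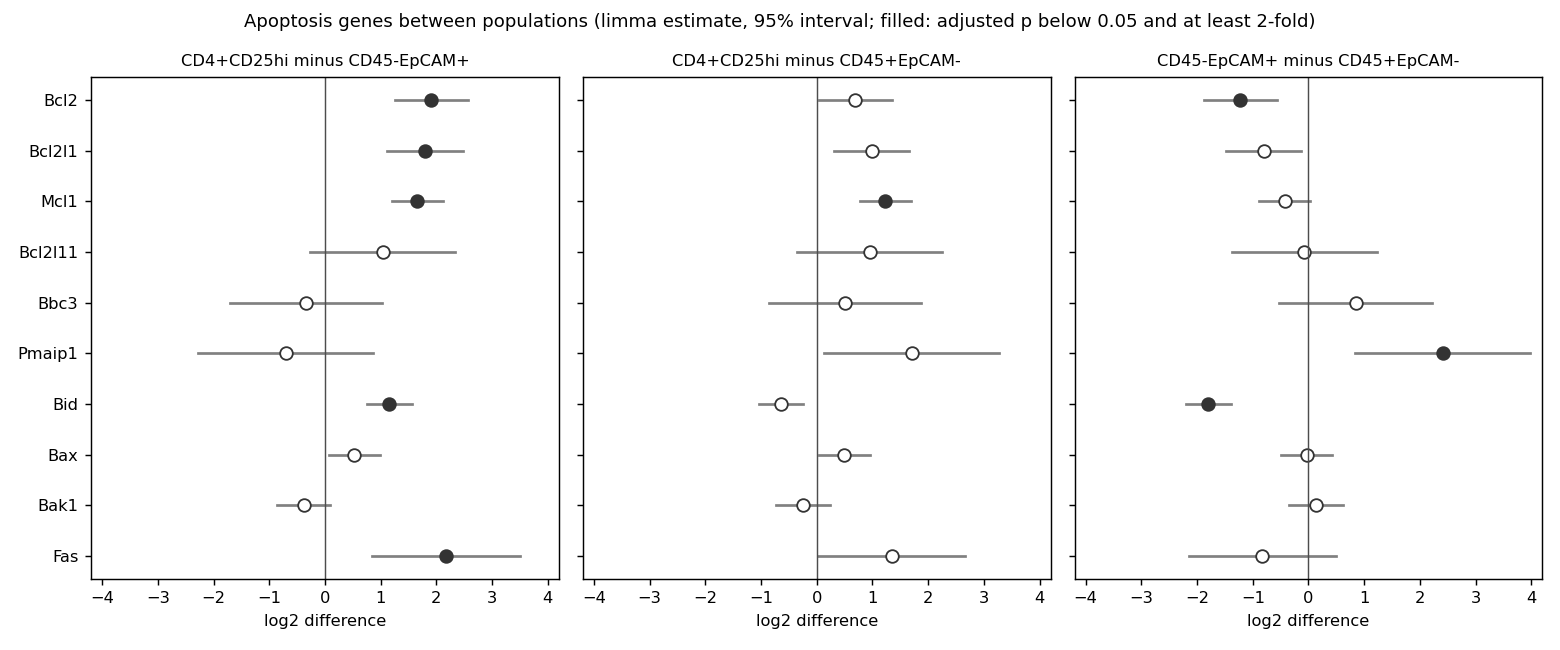
Log2 difference between populations (horizontal axis) for each of the 10 genes, as the limma estimate with its 95% interval; filled points have an adjusted p below 0.05 and are at least 2-fold. The 3 anti-apoptotic genes, Bid and Fas are filled on the right in the first panel, Mcl1 alone in the middle panel, and Pmaip1, Bcl2 and Bid in the last.

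Around these 10 genes, 6 lists of other apoptosis genes held 53 entries, of which 51 were named on the array. In CD4+CD25hi thymocytes 1 of 45 measured list genes was at least 2-fold apart between genotypes (2.22%, against 2.95% of all genes): Bnip3, a hypoxia-induced gene that acts in mitophagy, at 1.89 in the double knockout and 0.74 in the TNF knockout. In CD45+EpCAM- cells 0 of 47 were. In CD45-EpCAM+ cells 5 of 47 were at least 2-fold lower and none higher (10.6% of the list genes, against 14.4% of all genes). They were Bcl2a1d, the Bcl-2 relative A1, at 3.09 in the double knockout and 5.05 in the TNF knockout, Cflar, the caspase-8 inhibitor c-FLIP, at 0.42 and 1.48, Bcl2l14 at 0.64 and 1.66, and the dim-sided Bik and Naip2. Bik, a BH3-only gene, was at least 2.77-fold lower and Naip2, an inflammasome sensor of the IAP family, at least 3.81-fold lower. Bcl2a1d was also lower in the other pairs, with differences of -0.98 in the thymocytes and -0.52 in CD45+EpCAM- cells. The Bcl2a1 copies are nearly identical, so its probe may read more than 1 of them. In the shared fit none of 46 list genes passed, Bcl2a1d having -1.15 (SE 0.32, limma adjusted p = 0.679).

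By list, the epithelial medians were -0.97 over 2 anti-apoptotic relatives, -0.14 over 9 pro-apoptotic relatives, -0.08 over 11 death receptor signalling genes, 0.11 over 11 genes of mitochondrial execution, -0.17 over 6 inhibitors of apoptosis and -0.26 over 8 genes of p53 and its targets, against 0.03 for all genes. The p53 targets lay on both sides in the epithelial pair: Cdkn1a, a cell cycle inhibitor, had a difference of -0.76 and Ccng1 of -0.66, whereas Perp had 0.53 and Trp53inp1 0.40. Cdkn1a had lower double-knockout values in every pair, 1.69-fold lower in the epithelial sort, 1.70-fold lower in CD45+EpCAM- cells and at least 1.59-fold lower in thymocytes, where its probe was not well above background in the double knockout. Of the execution genes, 0 of 12 were 2-fold apart in CD4+CD25hi thymocytes (against 2.95% of all genes), 0 of 11 in CD45-EpCAM+ cells (against 14.4%) and 0 of 12 in CD45+EpCAM- cells (against 3.89%), Dffb giving no fold in the epithelial pair. Cycs, the gene of cytochrome c, had lower double-knockout values in all 3, with differences of -0.45, -0.72 and -0.21, and so had Apaf1, which forms the apoptosome with it, with -0.53, -0.45 and -0.24. Other execution genes lay above 0, among them Dffa with 0.50 in the epithelial pair and Casp9 with 0.29 in the thymocytes. How many of all genes were lower in all 3 pairs was not counted.

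**Figure D4:**
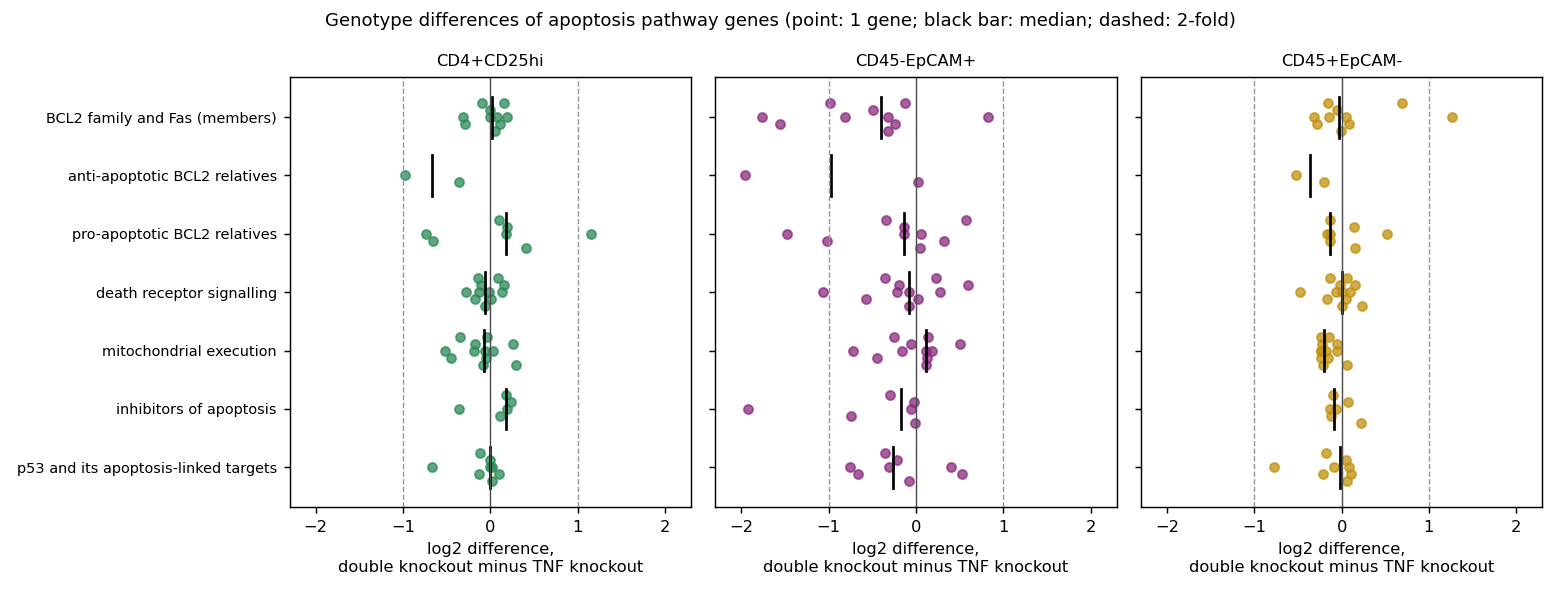
Log2 difference of double knockout minus TNF knockout (horizontal axis) for the 10 genes and the 6 lists of other apoptosis genes (rows), 1 panel per population; each point is 1 gene with 1 array per genotype, the black bar is the median of the row and dashed lines mark 2-fold. The spread is widest in CD45-EpCAM+ cells, and the 5 list genes past 2-fold there all lie on the left.

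Between populations the list genes differed in both directions. Of 46 tested, 10 were called higher and 10 lower in thymocytes against the epithelial sort (43.5%, against 38.9% of all genes). Of 11 death receptor signalling genes, 5 were called higher and 2 lower in the thymocytes, where 18.3% of all genes were called higher and 20.7% lower. Among those with the largest differences, the TRAIL receptor gene Tnfrsf10b (-2.68, SE 0.18, limma adjusted p = 0.00254) and the TNF receptor gene Tnfrsf1a (-2.20, SE 0.22, limma adjusted p = 0.00508) were lower in the thymocytes. The TRAIL gene Tnfsf10 (2.12, SE 0.24, limma adjusted p = 0.00642) and Casp8 (1.62, SE 0.13, limma adjusted p = 0.0036) were higher. Bcl2l2, the anti-apoptotic gene of Bcl-w, was lower in thymocytes (-2.21, SE 0.16, limma adjusted p = 0.00289), opposite to Bcl2, Bcl2l1 and Mcl1. The p53 target Perp was lower in the thymocytes as well (-5.83, SE 0.22, limma adjusted p = 0.00136), and so was Cdkn1a, which only 1 of the 2 thymocyte arrays measured well above background. Against CD45+EpCAM- cells 4 of 46 were called higher and 2 lower in the thymocytes (13.0%, against 12.6%), among them the NF-kB-induced inhibitor Birc3 (2.55, SE 0.28, limma adjusted p = 0.0212) and the mitotic gene Birc5 (-3.45, SE 0.15, limma adjusted p = 0.00919). Between CD45-EpCAM+ and CD45+EpCAM- cells 9 were called higher and 8 lower (37.0%, against 38.6%).

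The genes whose profile over the 6 arrays was most like that of each of the 10 were sought among 10213 genes well above background on every array, by the root mean square distance of levels centred on their own mean. The closest were Utrn for Bcl2 (0.0757 log2 units), Castor2 for Bcl2l1 (0.188), Kat2b for Mcl1 (0.0491), Cyba for Bcl2l11 (0.131), Stk39 for Bbc3 (0.231), Srgn for Pmaip1 (0.194), Ipo9 for Bid (0.0808), Fadd for Bax (0.0471), Lars2 for Bak1 (0.058) and Ctss for Fas (0.201). The next after them were Tecpr1, Dnmt3a, Cers4, Mfsd2a, Adh1, Slc4a8, Gnl3, Ankrd13c, Romo1 and Bcl2l1, in the same order of genes. Fas thus had another of the 10 genes, Bcl2l1, as its second closest profile (0.259), whereas for Pmaip1 the closest of the other 9 was Bbc3 at 0.867. The profile of Bcl2l11 includes its level of -3.55 on the double-knockout epithelial array, where its probe was not well above background.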

How the data were processed

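Per the labels' protocols, RNA of 6 pooled samples was amplified with a low-input kit and labelled with Cy3. The deposited intensity values are those of single spots on array design 026655. The file headers name Feature Extraction 10.5.1.1, whereas version 9.5 of Agilent Feature Extraction stands in the submitters' processing notes. Per the file headers, this software had already subtracted background from the processed signal. The deposited value table is on a log2 scale; set against the scanner files, it equalled log2 of the processed signal minus the 75th percentile of each array, to within an offset of at most 0.0054. Its column medians were -3.61 for double-knockout and -3.72 for TNF-knockout CD4+CD25hi, -2.72 and -2.84 for CD45-EpCAM+, and -3.58 and -3.63 for CD45+EpCAM-.

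Here control and outlier spots were left out, spots of a probe were averaged, and log2 of the processed signal was taken minus the 75th percentile of the array. Probes were named through transcript accessions in a table of assembly GRCm38.p6: 27472 of 39419 probes had 1 symbol, 35 several and 11912 none. Within a population a gene counted if 1 or both arrays were well above background, and a dim side was raised to the lowest signal well above background on its array. Genes left with no fold (119, 2605 and 27 in the order above) were set aside. Models were fitted with limma 3.58.1 in R 4.3.3 to genes well above background on 3 or more arrays, with 2 residual and 1.74 prior degrees of freedom and Benjamini-Hochberg adjustment over all 13743 genes. No p-value here reflects the spread of replicate pools. The fits were also run on simulated data, with independent noise and the same genotype shift in every population. That run does not show how they behave where the genotype difference varies between populations or arrays differ in brightness.

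The 10 genes and the lists were chosen with earlier results of these data known. The named genes are the 10, Rela and Tnf, marker genes, up to 4 genes of a list by size of difference, and the 2 closest profiles of each. Alternatives were quantile normalization, median centring, normexp (offset 50, on the median signals, since the mean signal column planned for it was not used here), the mean over probes, the value table, other filters on dim probes, a variance trend and leaving out arrays.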

Additional observations from a re-analysis of the deposited data

Results flagged for a closer look

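Bbc3, the gene of the BH3-only protein Puma, lay in opposite directions in 2 pairs. Its difference of double knockout minus TNF knockout was 1.26 in CD45+EpCAM- cells and -0.49 in CD45-EpCAM+ cells. Both were larger than the SD between probes of 1 gene in the same pair (0.206 and 0.325). That SD comes from probes on the same 2 arrays and does not measure the spread between pools. In the CD45+EpCAM- pair 99.0% of all genes had a lower difference than Bbc3, and in the CD45-EpCAM+ pair 17.5% had. The negative value is thus a common one for its pair. With 1 array per group the difference between the populations was not tested. Over the alternatives the first value ran from 1.19 to 1.28 and the second from -0.79 to -0.49.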

How the results depend on the processing

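No paired analysis was possible because each group has 1 array, and population is already a block in the shared fit. Of 229 within-population values of the 10 genes and Rela under alternatives, 225 moved by less than the SD between probes of 1 gene and 4 by more. In CD45-EpCAM+ cells 4 of the 10 genes were 2-fold apart with quantile normalization, which added Bcl2l1 and Bcl2l11. Over all genes the count rose there as well, to 2367 of 13377 from 1901 of 13208. Pmaip1 (-1.92 to -1.76) and Fas (-1.72 to -1.48) stayed past 2-fold there under every alternative run. Over all genes, the counts at least 2-fold apart were 51 with normexp, 222 with both arrays well above background and 1555 with no filter on dim probes in CD4+CD25hi; 1043 with normexp and 6500 with no filter in CD45-EpCAM+; and 174 with normexp and 1482 with no filter in CD45+EpCAM-. The fit of CD4+CD25hi minus CD45+EpCAM- called 440 genes and 0 of the 10 with no filter. With the mean over probes it called 1648 of 13793 genes and 2 of the 10. That of CD45-EpCAM+ minus CD45+EpCAM- called 8826 genes with no filter. Leaving out arrays, CD4+CD25hi minus CD45-EpCAM+ called 2845 to 5862 genes and 2 to 6 of the 10 (the 6 include Bcl2l11 against a probe not well above background), CD4+CD25hi minus CD45+EpCAM- 0 throughout, and CD45-EpCAM+ minus CD45+EpCAM- 2005 to 5830 genes and 1 to 4 of the 10. The shared fit called 0 genes under every alternative run.

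Signs turned for estimates that were not calls. In the shared fit Bcl2l11 was 0.056 with normexp and Mcl1 0.036 with the mean over probes. Leaving out each population in turn, Mcl1 ran from -0.10 to 0.10, Pmaip1 from -0.96 to 0.017 and Bax from -0.16 to 0.036, each positive without CD45-EpCAM+, and Bbc3 from -0.22 (without CD45+EpCAM-) to 0.66. For CD4+CD25hi minus CD45-EpCAM+, leaving out arrays gave -0.91 to 0.23 for Bbc3 and -1.59 to 0.18 for Pmaip1, positive without the TNF-knockout epithelial array. For CD4+CD25hi minus CD45+EpCAM-, Bbc3 ran from -0.23 (without the TNF-knockout CD45+EpCAM- array) to 1.25. For CD45-EpCAM+ minus CD45+EpCAM-, Bax was 0.28 with quantile normalization and 0.19 with median centring, Bcl2l11 0.15 with median centring and 0.83 with normexp (limma adjusted p = 0.0122), and Bak1 -0.019 with normexp. Leaving out arrays there gave -0.21 to 0.14 for Bax and -0.82 (against a probe not well above background) to 0.66 for Bcl2l11, both positive without either double-knockout array, and -0.061 (without the TNF-knockout CD45+EpCAM- array) to 0.34 for Bak1. The cause was not tested. Median centring moved the median of all genes by -0.22 in CD4+CD25hi minus CD45-EpCAM+ and by 0.23 in CD45-EpCAM+ minus CD45+EpCAM-, and normexp by -0.15 and 0.23, and by 0.14 in CD4+CD25hi minus CD45+EpCAM-.

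Signal over background limits the CD45-EpCAM+ pair most: 2605 genes there gave no fold, and Bcl2l11 has only a bound.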
